A study of Mus musculus with 14 samples.

Results

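The 8 genes for phosphate transport and sodium-proton exchange described here were measured in whole mouse kidneys before and after renal ischemia/reperfusion injury (IRI), a model of acute kidney injury in which the blood supply is stopped and then restored. They were chosen by gene symbol, and all 8 were found among the 24411 genes listed: the type II sodium-phosphate cotransporters Slc34a1, Slc34a2 and Slc34a3, the type III cotransporters Slc20a1 and Slc20a2, the sodium-proton exchanger Slc9a3, the scaffold protein Pdzk1 and the sodium-bicarbonate cotransporter Slc4a4. Bulk RNA sequencing covered 14 libraries from male C57/B6 mice of 8 weeks, with 4 libraries at day 0, 5 at day 1 after IRI and 5 at day 3. No allele or drug was labelled for any group. The day 0 libraries served as controls, and the sources used here do not say whether those animals had a sham operation. The labels do not say that each library came from a separate animal, so p-values measure only the spread between these libraries, which may be technical.

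In the kidney, phosphate that passes the glomerulus is taken back mainly by the proximal tubule. Slc34a1 (NaPi-IIa) and Slc34a3 (NaPi-IIc) sit in its brush border and bring in phosphate together with sodium, and Pdzk1, a protein with PDZ domains, holds such transporters at the membrane. Parathyroid hormone and FGF23, acting with its coreceptor Klotho, lower the amount of both transporters at the membrane. Slc34a2 (NaPi-IIb) is best known from intestine and lung, whereas Slc20a1 (PiT-1) and Slc20a2 (PiT-2) are expressed in most cell types and also serve as receptors for some retroviruses. Slc9a3 (NHE3) exchanges luminal sodium for protons in the same brush border, and Slc4a4 (NBCe1) moves bicarbonate with sodium out of the cell on the blood side.

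The library numbers in the deposited names have either 1 digit or 3 digits. All 4 day 0 libraries, day 1 replicates 3, 4 and 5 and day 3 replicates 4 and 5 have 1-digit numbers. Day 1 replicates 1 and 2 and day 3 replicates 1, 2 and 3 have 3-digit numbers. What the format marks is not given in the sources used here. Values are given within each format, as a possible batch and not as a condition, because the formats stood apart for several of the genes. Since day 0 holds 1-digit libraries alone, each 3-digit group differs from day 0 in both day and format, and these cannot be told apart there. Day 3 replicate 2 lay close to day 0 for Slc34a1, Slc34a3, Slc9a3 and Pdzk1, and results that turn on it are given with and without it.

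Reads on genes ranged from 12485579 to 20476979 per library. The counts of any pair of libraries from the same day differed beyond read sampling, with a chi-square statistic per degree of freedom of 5.95 to 26.2 at day 0, 35.4 to 241 at day 1 and 50.9 to 224 at day 3, and each library was kept as a replicate. The 15 proximal tubule markers, such as Lrp2 and Cubn, were all detected, and their summed level was 26568 to 27576 CPM (reads of a gene scaled to the size of its library) at day 0, 8705 to 23499 at day 1 and 5143 to 20656 at day 3. Of these markers, 7 fell and 0 rose at each day. Day 3 replicate 2 was nearest to day 0 for them too. Their mean log2 CPM was 9.63 in that library, 9.86 to 9.93 at day 0 and 7.27 to 8.79 in the other day 3 libraries. Markers of other tubule segments were lower as well. Of 8 markers of the loop of Henle and distal tubule, 4 were lower at day 1 and 6 at day 3 (median log2 -0.48 and -1.80). Of 8 collecting duct markers, 2 and 4 were lower (median -0.36 and -0.79), with 0 higher in either list. Over all genes tested, 18.7% were lower and 23.3% higher at day 1, and 13.8% and 19.5% at day 3. The collecting duct share at day 1 was near this background. The 10 tubular injury markers summed to 1200.3 to 1577 CPM at day 0, 8932 to 37212 at day 1 and 6743 to 44688 at day 3, with 9 higher and 0 lower at each day. In whole tissue, fewer cells of a type and less RNA per cell cannot be told apart. Leukocyte markers rose for 4 and fell for 1 of 8 tested at day 1, and rose for 5 and fell for 1 at day 3. Fibroblast and pericyte markers rose for 2 and fell for 1 of 8 at day 1 and rose for 6 at day 3. Their share at day 1 was near the background. Summed leukocyte markers were 120.04 to 188 CPM at day 0, 149 to 374 at day 1 and 204 to 530.3 at day 3, with Cd3e and Cd79a too low to be tested and no marker at 0 reads in every library. The part of these other cells in the results below was not tested.

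All 8 genes passed the filter on low counts. At day 1 after IRI, 5 of the 8 had an adjusted p under 0.05 compared with day 0 in edgeR's quasi-likelihood test, beside 42.1% of all 14300 genes tested. Slc34a2, Slc20a1 and Slc20a2 were higher, beside 23.3% of all genes, and Slc9a3 and Pdzk1 were lower, beside 18.7%. At day 3, 3 of 8 passed, beside 33.3% of all genes, with Slc20a1 and Slc20a2 higher (19.5% of all genes) and Slc9a3 lower (13.8%). The libraries did not overlap with those of day 0 for 5 of the 8 at day 1 and 5 at day 3, where this held for 42.0% and 33.4% of all genes. Their median log2 fold change was -0.19 at day 1 and -0.18 at day 3, where the median over all genes was 0.01 and 0.05. The day 1 and day 3 comparisons share the day 0 libraries. With 1-digit libraries alone, 6 of 8 passed at day 1 and 7 of 8 at day 3, beside 61.3% and 56.3% of the 14430 genes tested in that fit. Day 3 differed from day 1 in 2 of 8, beside 15.9% of all genes, with Slc4a4 higher (8.52% of all genes) and Slc20a1 lower (7.39%). Of the 8, only Slc20a1 had libraries that did not overlap between these days, which held for 7.61% of all genes. By format, 5 of 8 passed against day 0 in the 1-digit and 7 in the 3-digit libraries of day 1, beside 58.5% and 41.6% of all genes. At day 3, 7 passed in the 1-digit and 5 in the 3-digit libraries, beside 53.7% and 32.4% of all genes. The 5 of the 3-digit libraries of day 3 became 2 without day 0 replicate 2 or day 3 replicate 1 and 8 without day 3 replicate 2, and the 5 of the 1-digit libraries of day 1 became 3 without day 1 replicate 4.

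**Figure D1:**
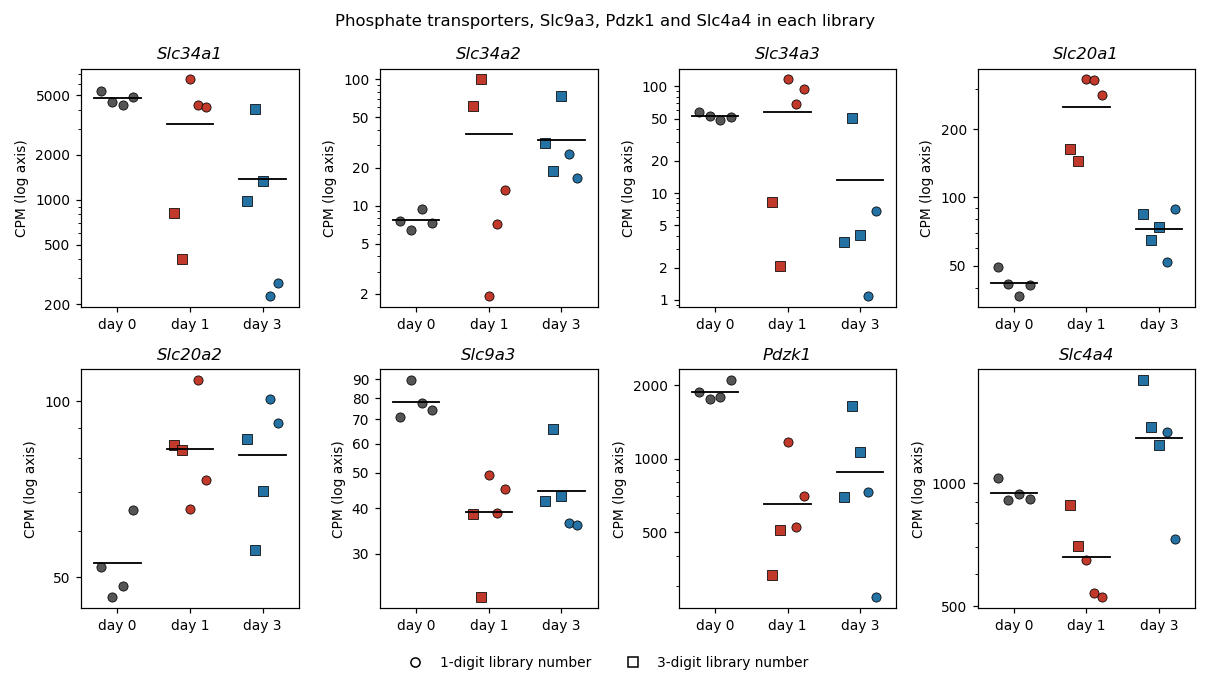
Expression of each gene in every library, in CPM on a log axis, by day after IRI. Circles are libraries with 1-digit numbers, squares those with 3-digit numbers, and the line is the mean of the day (n = 4, 5 and 5). Slc34a1 and Slc34a3 split by format at day 1, while all 5 day 1 libraries of Slc20a1, at 145 to 331 CPM, lie above those of day 0, at 36.7 to 49.6 CPM.

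Slc34a1 had the highest level per kilobase of exon of the 8 genes at day 0, at 1021 ± 101 CPM per kb (SD, n = 4), followed by Pdzk1 at 529 ± 42.7 and Slc4a4 at 87.7 ± 5.16. Slc34a3 came next at 22.4 ± 1.64 CPM per kb and Slc9a3 at 14.2 ± 1.47. The lowest were Slc20a2 at 8.51 ± 1.36, Slc20a1 at 7.56 ± 0.968 and Slc34a2 at 1.53 ± 0.258 CPM per kb. The means of Slc20a2 and Slc20a1 differed by less than their SDs, and the other neighbours in this order differed by more. At day 1 Slc20a1 lay above Slc34a3 in the order, at 44.9 ± 16.2 CPM per kb (SD, n = 5) against 24.6 ± 21.7, although their spreads overlapped. At day 3 the means of Slc34a1, at 295 ± 338 CPM per kb, and Pdzk1, at 247 ± 143, differed by less than either SD.

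Promoter sequence is shown for Slc34a1 and Slc34a3, which were high and low in nearly the same libraries, for Slc20a1, whose 5 day 1 libraries lay above all others, and for Pdzk1, which was low in them. The windows come from RefSeq on GRCm38.p6, which holds 10 windows for 7 of the 8 genes, with 2 start sites each for Slc20a1, Pdzk1 and Slc4a4. Each runs from 250 bases before to 30 bases past the start site, 5′ to 3′ along the gene's own strand. They lie at chr13:55399398-55399677 (plus strand) for Slc34a1, chr2:25234205-25234484 (minus strand) for Slc34a3, chr2:129198523-129198802 (plus strand) for Slc20a1 and chr3:96829815-96830094 (plus strand) for Pdzk1. Capitals mark the letters of the motifs that were searched on both strands.
Slc34a1: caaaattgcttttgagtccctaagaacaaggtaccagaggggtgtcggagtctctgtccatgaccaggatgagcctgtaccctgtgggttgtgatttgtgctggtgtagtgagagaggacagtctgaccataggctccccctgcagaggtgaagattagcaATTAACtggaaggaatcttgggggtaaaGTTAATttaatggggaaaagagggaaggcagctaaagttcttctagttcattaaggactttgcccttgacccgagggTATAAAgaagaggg
Slc34a3: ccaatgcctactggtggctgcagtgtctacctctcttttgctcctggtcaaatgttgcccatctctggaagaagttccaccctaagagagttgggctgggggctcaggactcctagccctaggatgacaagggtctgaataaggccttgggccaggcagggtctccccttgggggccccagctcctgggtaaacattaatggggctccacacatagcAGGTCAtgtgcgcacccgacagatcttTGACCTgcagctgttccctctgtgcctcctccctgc
Slc20a1: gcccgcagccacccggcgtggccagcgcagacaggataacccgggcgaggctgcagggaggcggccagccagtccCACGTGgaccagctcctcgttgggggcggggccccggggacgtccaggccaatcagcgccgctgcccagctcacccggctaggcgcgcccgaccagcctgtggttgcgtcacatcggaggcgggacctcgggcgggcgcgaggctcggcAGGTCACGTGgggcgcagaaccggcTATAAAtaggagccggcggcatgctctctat
Pdzk1: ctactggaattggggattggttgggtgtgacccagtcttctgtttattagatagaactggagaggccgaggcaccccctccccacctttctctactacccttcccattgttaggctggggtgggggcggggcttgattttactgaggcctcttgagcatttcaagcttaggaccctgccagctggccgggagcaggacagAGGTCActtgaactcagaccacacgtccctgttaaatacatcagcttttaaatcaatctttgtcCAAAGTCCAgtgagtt

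The search covered 6 motifs over windows of 300 bases. HNF1 and HNF4 are transcription factors of proximal tubule and liver. The HNF1 half-site, GTTAAT, lay at -89 and -61 from the start site of Slc34a1, and 7.10% of all 32851 promoter windows held it. The HNF4 site, CAAAGTCCA, lay at 14 in Pdzk1, and 0.475% of windows held it. A nuclear receptor half-site, AGGTCA, lay at -50 in Pdzk1, at -33 and -6 in Slc34a3, at -75 from the second start site of Slc20a1 and at -121 from the second start site of Slc4a4, and 16.3% of windows held it. The E-box, CACGTG, lay at -175 and -22 in Slc20a1 and at -87 in Slc9a3, and 7.15% of windows held it. At the first start site of Slc20a1 a nuclear receptor half-site at -26 overlapped the second E-box. The letters TATAAA, searched as the TATA box motif, were at -1 in Slc20a1 and at 16 in Slc34a1, and 13.6% of windows held them. These matches thus lay at or past the start site. The AP-1 site, TGANTCA, was in 7.81% of all windows and in none of those of the 7 genes. The Slc34a2 window held none of the 6 motifs as spelled, although it reads tatatata before its start site. A match describes letters only and is no evidence of binding.

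Slc34a1 (ENSMUSG00000021490.11, chr13:55398187-55415592 on GRCm38) is the main phosphate transporter of the brush border. Its level at day 0 was 5387, 4534, 4306 and 4875 CPM in replicates 1 to 4. At day 1 it was 817 and 402 CPM in the 3-digit replicates 1 and 2, and 6401, 4343 and 4182 CPM in the 1-digit replicates 3, 4 and 5. At day 1 the 1-digit libraries thus spanned the range of day 0 and the 3-digit libraries lay far below it. The order turned at day 3, where the 3-digit replicates 1, 2 and 3 stood at 982, 4084 and 1335 CPM and the 1-digit replicates 4 and 5 at 226 and 278 CPM. All 5 day 3 libraries lay below those of day 0, by a small margin in replicate 2.

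Pooled by day, the log2 fold change of Slc34a1 was -0.56 (SE 0.80, adjusted p = 0.591, edgeR) at day 1 and -1.79 (SE 0.81, adjusted p = 0.102) at day 3, and neither passed the test. Without day 3 replicate 2, the day 3 value was -2.76 (adjusted p = 0.0124). Within formats, the 1-digit libraries of day 1 gave 0.06 (SE 0.40, adjusted p = 0.910) compared with day 0, and the 3-digit libraries fell by 2.97 (SE 0.53, adjusted p = 0.000856), which is 7.84-fold lower. At day 3, the 1-digit libraries fell by 4.25 (SE 0.57, adjusted p = 8.43e-05), or 18.96-fold, and the 3-digit libraries by 1.16 (SE 0.41, adjusted p = 0.0454). The last call was lost without any 1 of the day 0 libraries, day 1 replicates 4 or 5 or day 3 replicates 1, 3 or 4 (adjusted p from 0.0520 to 0.154), and with total counts in place of TMM (adjusted p = 0.0677).

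Slc34a3 (chr2:25228898-25234364, minus strand), a transporter of the same brush border whose loss causes a hereditary form of rickets in humans, split in the same way at day 1. It stood at 57.6, 53.0, 48.2 and 52.1 CPM at day 0. The 3-digit replicates 1 and 2 of day 1 had 8.30 and 2.09 CPM, whereas the 1-digit replicates 3 to 5 had 116, 69.2 and 94.3 CPM, each above every day 0 library. At day 3, replicate 2 had 51.1 CPM, within the range of day 0. The other day 3 libraries lay far below it, at 3.51 and 4.01 CPM in replicates 1 and 3 and 1.08 and 6.76 CPM in replicates 4 and 5. The lowest of these, 1.08 CPM, rested on 16 reads.

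The pooled log2 fold change of Slc34a3 was 0.14 (SE 1.01, adjusted p = 0.924) at day 1 and -1.99 (SE 1.02, adjusted p = 0.148) at day 3. Leaving out day 3 replicate 2 gave -3.78 (adjusted p = 0.00645). Between day 1 and day 3 it was -2.12 (SE 0.99, adjusted p = 0.157), and -3.92 (adjusted p = 0.0160) without that library. In the 1-digit libraries of day 1 the log2 difference was 0.82 (SE 0.74, adjusted p = 0.352) in the fit of all libraries, and 0.86 (adjusted p = 0.0463) where 1-digit libraries alone were fitted. The gene fell by 3.36 (SE 1.04, adjusted p = 0.0201) in the 3-digit libraries of day 1, a call that was lost without replicate 2 (-2.67, adjusted p = 0.150). It fell by 3.77 (SE 1.09, adjusted p = 0.0108) in the 1-digit libraries of day 3, lost without replicate 4 (-2.96, adjusted p = 0.0876). The 3-digit libraries of day 3 gave -1.44 (adjusted p = 0.176) with replicate 2 and -3.81 (adjusted p = 0.000365) without it.

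Slc34a2 (chr5:53038081-53071664) was the least abundant of the 8 at day 0, at 7.54, 6.41, 9.48 and 7.26 CPM, and was high where the other type II genes were low at day 1. Its day 1 levels were 61.4 and 100.1 CPM in the 3-digit replicates 1 and 2, and 1.91, 7.09 and 13.2 CPM in the 1-digit replicates 3 to 5, which overlapped day 0. At day 3 it stood at 31.6, 18.9 and 74.5 CPM in the 3-digit replicates 1 to 3 and 25.6 and 16.6 CPM in the 1-digit replicates 4 and 5. All 5 day 3 libraries were above day 0.

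The pooled rise of Slc34a2 at day 1 was 2.26 on the log2 scale (SE 0.86, adjusted p = 0.0459, edgeR), with the groups overlapping. This call rested on the 3-digit libraries and was lost without either of them (1.97, adjusted p = 0.0884, without replicate 1 and 1.45, adjusted p = 0.135, without replicate 2), without any 1 day 0 library or day 3 replicates 1 or 4, and with format as a further term (0.61, adjusted p = 0.452). It was also lost with no filter, with total counts or with day 0 and day 1 fitted alone (adjusted p from 0.0506 to 0.0661), and with replicate number as a further term. At day 3 the log2 difference was 2.12 (SE 0.85, adjusted p = 0.0682), which did not pass, although 2.11 passed with the day 0 and day 3 libraries fitted alone (adjusted p = 0.00563). The 1-digit libraries of day 1 gave -0.07 (SE 0.53, adjusted p = 0.924), and the day 1 value was -0.035 (adjusted p = 0.953) where 1-digit libraries alone were fitted. The rise was 10.5-fold in the 3-digit libraries of day 1 (log2 3.40, SE 0.54, adjusted p = 0.000398) and 5.43-fold in those of day 3 (log2 2.44, adjusted p = 0.00278), where it was 1.68 on the log2 scale (adjusted p = 0.0224) without replicate 3. It was 2.75-fold in the 1-digit libraries of day 3 (log2 1.46, adjusted p = 0.0400), a call lost without any 1 day 0 library, day 1 replicates 1 or 4 or either day 3 library (adjusted p up to 0.217), and with DESeq2 (adjusted p = 0.0625). Urothelium markers summed to 28.4 and 132 CPM in the 3-digit replicates 1 and 2 of day 1, against 5.66 to 11.9 CPM in the 1-digit replicates of that day. By the test between these formats, 4 of the 8 markers were higher, beside 35.0% of all genes called in either direction. At day 3 they summed to 3.49 to 18.7 CPM in the 3-digit libraries, where 0 of the 8 were higher and 1 lower than at day 0 (median log2 -1.49) and Slc34a2 was higher, and to 9.40 and 56.4 CPM in the 1-digit libraries. Urothelium markers ranged from 4.47 to 90.5 CPM at day 0, and their part in the Slc34a2 level was not tested.

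Slc20a1 (chr2:129198764-129211616), a type III cotransporter of most cell types, rose at both days and most at day 1. It had 49.6, 41.4, 36.7 and 41.1 CPM at day 0, and 164, 145, 331, 330.5 and 282 CPM in replicates 1 to 5 of day 1. At day 3 it had 84.2, 65.2, 73.8, 52.0 and 89.3 CPM. The 3 days did not overlap, with day 3 between day 0 and day 1. The 1-digit libraries of day 1 were the highest.

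The mean of Slc20a1 was 42.2 ± 5.40 CPM at day 0 (SD, n = 4), 250.5 ± 90.2 at day 1 and 72.9 ± 14.9 at day 3 (SD, n = 5 each). The rise at day 1 was 5.93-fold (log2 2.57, SE 0.27, adjusted p = 2.08e-05, edgeR). It was 7.45-fold in the 1-digit libraries (adjusted p = 2.70e-07) and 3.66-fold in the 3-digit libraries (adjusted p = 1.53e-05). The rise at day 3 was 1.73-fold (log2 0.79, SE 0.25, adjusted p = 0.0259). This call was lost without day 0 replicates 2, 3 or 4 or day 3 replicates 1 or 5 (log2 0.72 to 0.78, adjusted p from 0.0551 to 0.0762). It was also lost with replicate number as a further term. From day 1 to day 3 Slc20a1 fell by 1.78 on the log2 scale (SE 0.24, adjusted p = 0.00137), a 3.43-fold drop.

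Slc20a2 (chr8:22476788-22569612), the other type III cotransporter, rose less and to similar levels at both days. At day 0 it had 52.1, 46.3, 48.3 and 65.1 CPM. Replicates 1 to 5 had 84.2, 82.6, 65.5, 109 and 73.4 CPM at day 1 and 86.3, 55.8, 70.2, 101 and 91.7 CPM at day 3. The lowest day 1 library lay just above the highest day 0 library, and day 3 overlapped day 0 through replicate 2. The log2 fold change was 0.65 (SE 0.19, adjusted p = 0.0136) at day 1 and 0.61 (SE 0.19, adjusted p = 0.0223) at day 3. The day 3 call was lost without day 0 replicates 1, 2 or 3 or day 3 replicate 4 (adjusted p from 0.0556 to 0.0702), and with the 3-digit libraries as the sole libraries of days 1 and 3 (0.42, adjusted p = 0.0719). Of the type III genes, Slc20a2 showed the smaller gap between the formats of day 1, at 0.01 on the log2 scale (SE 0.22, adjusted p = 0.968), where Slc20a1 was lower by 1.03 in the 3-digit libraries (SE 0.21, adjusted p = 0.00296).

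Reads per kilobase of the 3 type II genes made up 98.4% to 98.6% of those of all 5 phosphate cotransporters in the day 0 libraries. The share was 81.6% and 73.1% in the 3-digit replicates 1 and 2 of day 1 and 95.3%, 92.6% and 93.8% in the 1-digit replicates 3 to 5. It was 88.3%, 97.8% and 92.5% in the 3-digit replicates 1 to 3 of day 3 and 67.8% and 68.1% in the 1-digit replicates 4 and 5. All 10 libraries after IRI thus had a smaller type II share than every day 0 library. Within type II reads per kb, Slc34a2 made up 0.128% to 0.200% at day 0, 6.43% and 18.7% in the 3-digit libraries of day 1, and 0.419% to 9.46% at day 3. In the 1-digit libraries of day 1 it was 0.0268%, 0.147% and 0.281%, values that lie below, within and above the day 0 range. These shares combine several of the genes and were not tested.

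**Figure D2:**
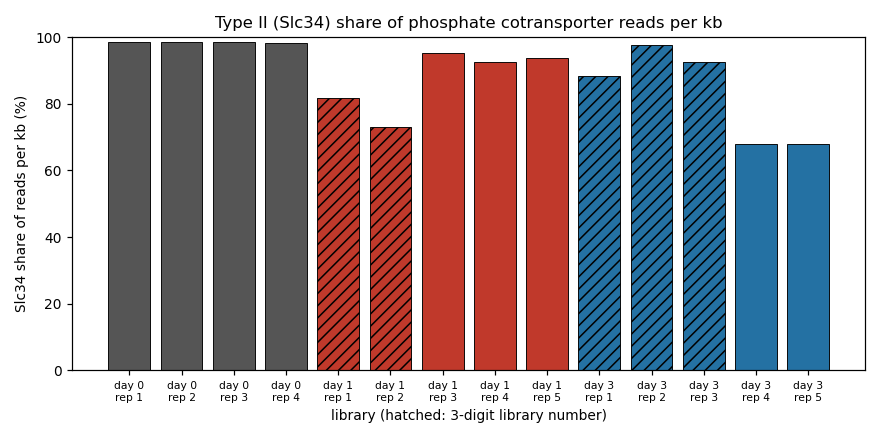
Share of Slc34a1, Slc34a2 and Slc34a3 in the reads per kilobase of exon of the 5 phosphate cotransporters, in percent, in each of the 14 libraries, with 3-digit libraries hatched. The share stays between 98.4% and 98.6% at day 0 and is lowest, at 67.8% and 68.1%, in day 3 replicates 4 and 5.

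Slc9a3 (chr13:74121457-74169442), the brush border sodium-proton exchanger, fell at both days in both formats. It had 71.1, 89.5, 77.3 and 74.1 CPM at day 0. Replicates 1 to 5 had 38.5, 22.8, 49.3, 38.9 and 45.0 CPM at day 1 and 41.9, 66.0, 43.1, 36.5 and 35.8 CPM at day 3. Every library after IRI lay below every day 0 library, with day 3 replicate 2 the nearest. The mean was 78.0 ± 8.08 CPM at day 0 (SD, n = 4), 38.9 ± 10.1 at day 1 and 44.7 ± 12.3 at day 3 (SD, n = 5 each). The fall was 2.01-fold at day 1 (log2 -1.004, SE 0.21, adjusted p = 0.00246, edgeR) and 1.75-fold at day 3 (log2 -0.80, SE 0.21, adjusted p = 0.0113). Both calls held in all 11 other settings and without any 1 of the 14 libraries. By format, the log2 values were -0.81 and -1.35 in the 1-digit and 3-digit libraries of day 1 and -1.11 and -0.63 in those of day 3, all with adjusted p of 0.0234 or lower. The last of these was lost without day 0 replicate 2 or day 3 replicates 1 or 3 (adjusted p from 0.0647 to 0.0977) and with total counts in place of TMM (-0.48, adjusted p = 0.0615).

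Pdzk1 (chr3:96829284-96870926), the scaffold of the brush border, had 1874, 1758, 1793 and 2096.5 CPM at day 0. At day 1 it had 334 and 511 CPM in the 3-digit replicates 1 and 2 and 1174, 526.04 and 702 CPM in the 1-digit replicates 3 to 5. At day 3 it had 698, 1638 and 1066 CPM in the 3-digit replicates 1 to 3 and 727 and 270.4 CPM in the 1-digit replicates 4 and 5. All 10 libraries after IRI lay below day 0, replicate 2 of day 3 by the least. The fall at day 1 was 2.90-fold (log2 -1.53, SE 0.42, adjusted p = 0.00943, edgeR) and held in all 11 other settings and without any 1 library. At day 3 the log2 difference was -1.10 (SE 0.41, adjusted p = 0.0540), which did not pass, and it was -1.44 (adjusted p = 0.0107) without replicate 2. It also passed with 1-digit libraries alone (-1.89, adjusted p = 0.00281), with DESeq2 (adjusted p = 0.0226) and without day 1 replicate 1 or 3 (adjusted p = 0.0421 and 0.0380). Pdzk1 overlaps 3 genes on the other strand, and counts without strand differed from the strand-specific ones by up to 15.3% in a library. On those counts the day 3 value was -1.17 (adjusted p = 0.0379).

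In the 1-digit libraries of day 1, where Slc34a1 did not pass the test against day 0, Pdzk1 fell by 1.23 on the log2 scale (SE 0.37, adjusted p = 0.0114). That call was lost without day 1 replicate 4 (-1.001, adjusted p = 0.0600). Pdzk1 fell by 2.15 (SE 0.45, adjusted p = 0.00235) in the 3-digit libraries of day 1 and by 1.92 (SE 0.44, adjusted p = 0.00299) in the 1-digit libraries of day 3. The 3-digit libraries of day 3 gave -0.73 (SE 0.36, adjusted p = 0.140), or -1.09 (adjusted p = 0.0426) without replicate 2.

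Slc4a4 (chr5:88886818-89239653), the bicarbonate exit step on the blood side, was lower at day 1 and higher at day 3, without passing the test against day 0 at either. It had 1030.2, 912, 940.1 and 913 CPM at day 0. The 3-digit replicates 1 and 2 of day 1 had 887 and 701 CPM, and the 1-digit replicates 3 to 5 had 650.3, 539.5 and 527 CPM. At day 3 the 3-digit replicates 1 to 3 had 1785, 1373 and 1238 CPM and the 1-digit replicates 4 and 5 had 1334 and 729 CPM. All day 1 libraries lay below day 0, and 4 of the 5 day 3 libraries lay above it, replicate 5 being the exception. The log2 difference from day 0 was -0.52 (SE 0.22, adjusted p = 0.0696, edgeR) at day 1 and 0.45 (SE 0.22, adjusted p = 0.136) at day 3. Day 3 was higher than day 1 by 0.97 on the log2 scale (SE 0.21, adjusted p = 0.00975), or 1.95-fold, although replicate 5 of day 3 lay within the range of day 1.

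By format, Slc4a4 fell by 0.73 (SE 0.20, adjusted p = 0.00728) in the 1-digit libraries of day 1 and rose by 0.63 (SE 0.20, adjusted p = 0.0270) in the 3-digit libraries of day 3. The 3-digit libraries of day 1 gave -0.26 (SE 0.23, adjusted p = 0.385) and the 1-digit libraries of day 3 gave 0.12 (SE 0.22, adjusted p = 0.666), neither of which passed. The rise was lost without day 0 replicates 2, 3 or 4 or day 3 replicate 1 (log2 0.46 to 0.62, adjusted p from 0.0582 to 0.123). Pooled over formats, the day 1 difference passed without day 1 replicate 1 (-0.68, adjusted p = 0.0270) or day 3 replicate 5 (-0.49, adjusted p = 0.0316). The day 3 difference passed without day 3 replicate 5 (0.60, adjusted p = 0.0244).

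Libraries with 3-digit and 1-digit numbers of the same day were then compared directly. At day 1, 4 of the 8 genes differed between formats, beside 35.0% of all genes. Slc34a1 was 8.17-fold lower (log2 -3.03, SE 0.54, adjusted p = 0.00150), Slc34a3 was 18.1-fold lower (log2 -4.18, SE 1.10, adjusted p = 0.0112) and Slc20a1 was 2.04-fold lower in the 3-digit libraries. Slc34a2 was 11.02-fold higher there (log2 3.46, SE 0.61, adjusted p = 0.00131). The Slc34a3 call was lost without day 1 replicate 2 (-3.49, adjusted p = 0.113). Slc20a2, Slc9a3, Pdzk1 and Slc4a4 did not pass (adjusted p from 0.0897 to 0.968), with Slc9a3 passing without day 1 replicate 1 (-0.97, adjusted p = 0.0214) or day 3 replicate 2 (adjusted p = 0.0447).

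At day 3, 1 of the 8 differed between formats, beside 18.5% of all genes. This was Slc34a1, 8.47-fold higher in the 3-digit libraries (log2 3.08, SE 0.55, adjusted p = 0.00551), and the call was lost without replicate 5 (3.21, adjusted p = 0.0661). The other 7 had adjusted p from 0.0754 to 0.816. Proximal tubule markers summed to 16177 to 23499 CPM in the 1-digit and 8705 to 10748 in the 3-digit libraries of day 1, and to 5143 to 8198 in the 1-digit and 10841 to 20656 in the 3-digit libraries of day 3. Tubular injury markers summed to 8932 to 16965 and 31543 to 37212 CPM in the same order at day 1, and to 37102 to 44688 and 6743 to 33674 at day 3. Of the 15 proximal tubule markers, 7 were lower and 0 higher in the 3-digit libraries at day 1, and 8 were higher and 0 lower at day 3. Most injury markers did not pass between formats, with 2 higher, 1 lower and 7 not called at day 1 (median log2 0.03) and 0 higher, 1 lower and 9 not called at day 3 (median log2 -0.65). Of 8 fibroblast and pericyte markers, 4 were higher and 0 lower in the 3-digit libraries of day 1 (median log2 1.12), with sums of 350.03 and 464 CPM against 150.3 to 204 CPM in the 1-digit libraries and 141 to 146 CPM at day 0. Endothelium markers differed at day 3, where 6 of 8 were lower and 0 higher in the 3-digit libraries (median log2 -1.23). They summed to 616 to 990.03 CPM in the 1-digit and 227 to 412 CPM in the 3-digit libraries of day 3, against 369 to 469 CPM at day 0. All 8 were higher than at day 0 in the 1-digit libraries of day 3, where 53.7% of all genes were called in either direction. The part of these markers' cells in the differences of Slc34a1, Slc34a2 and Slc34a3 was not tested. The format difference itself changed between day 1 and day 3 for 5 of the 8 genes, beside 17.6% of all genes, namely Slc34a1, Slc34a3, Slc20a1, Slc9a3 and Pdzk1.

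**Figure D3:**
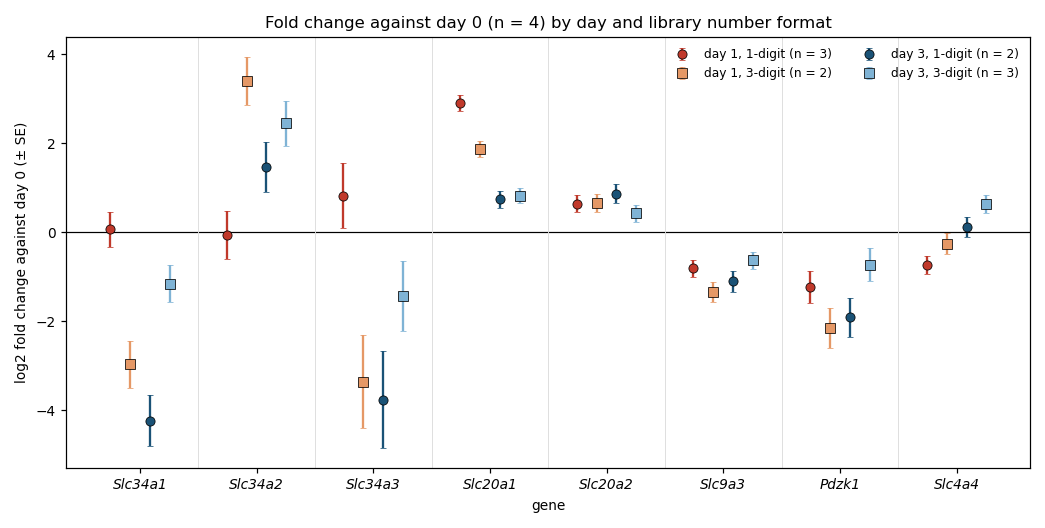
Log2 fold change of each gene compared with day 0 (n = 4), with SE bars, for the 1-digit (circles) and 3-digit (squares) libraries of day 1 (n = 3 and 2) and day 3 (n = 2 and 3). Slc34a1 lies at 0.06 and -2.97 in the 1-digit and 3-digit libraries of day 1 and at -4.25 and -1.16 in those of day 3, while all 4 values of Slc20a1 lie above 0 and all 4 of Slc9a3 below it.

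The 5 genes that work in the proximal tubule cell were next set against the proximal tubule markers of the same library, as log2 CPM minus the mean log2 CPM of the 15 markers. Slc34a1 stood 2.21 to 2.46 above this mean at day 0. It stood 3.06, 3.15 and 3.03 above it in the 1-digit replicates 3, 4 and 5 of day 1 and 1.47 and 0.60 above it in the 3-digit replicates 1 and 2. At day 3 the values were 1.32, 2.36 and 1.59 in the 3-digit replicates and -0.31 and 0.85 in the 1-digit replicates 4 and 5. In the 1-digit libraries of day 1 Slc34a1 was thus higher relative to these markers than in any day 0 library. In the 3-digit libraries of that day it was lower than in any of them.

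Slc4a4 ran level with the marker mean at day 0, at -0.05 to 0.08, and stood 0.79 to 2.25 above it in all 5 day 3 libraries. At day 1 it was 1.59 and 1.41 above in the 3-digit libraries and -0.24 to 0.14 in the 1-digit libraries. The mean relative level differed from day 0 by 1.79 at day 3 (exact permutation test, two-sided, p = 0.0159, adjusted p = 0.139 over 10 tests) and by 0.59 at day 1 (p = 0.333, exact). Slc34a1 differed by -0.07 at day 1 (p = 0.833, exact) and -1.17 at day 3 (p = 0.0476, exact, adjusted p = 0.139). Pdzk1 differed by -0.53 at day 1 (p = 0.0397, exact, adjusted p = 0.139) and 0.08 at day 3, and Slc9a3 by 0.09 and 0.56 (p = 0.0556 at day 3, exact). Slc34a3 differed by 0.16 and -1.80 (p = 0.0952 at day 3, exact). With 4 libraries against 5 the smallest possible p is 0.00794, and 0 of the 10 tests passed after Benjamini-Hochberg adjustment. With Lrp2 alone as the reference, 4 of 10 passed, namely Slc4a4 at both days and Slc9a3 and Pdzk1 at day 1, all higher relative to Lrp2.

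**Figure D4:**
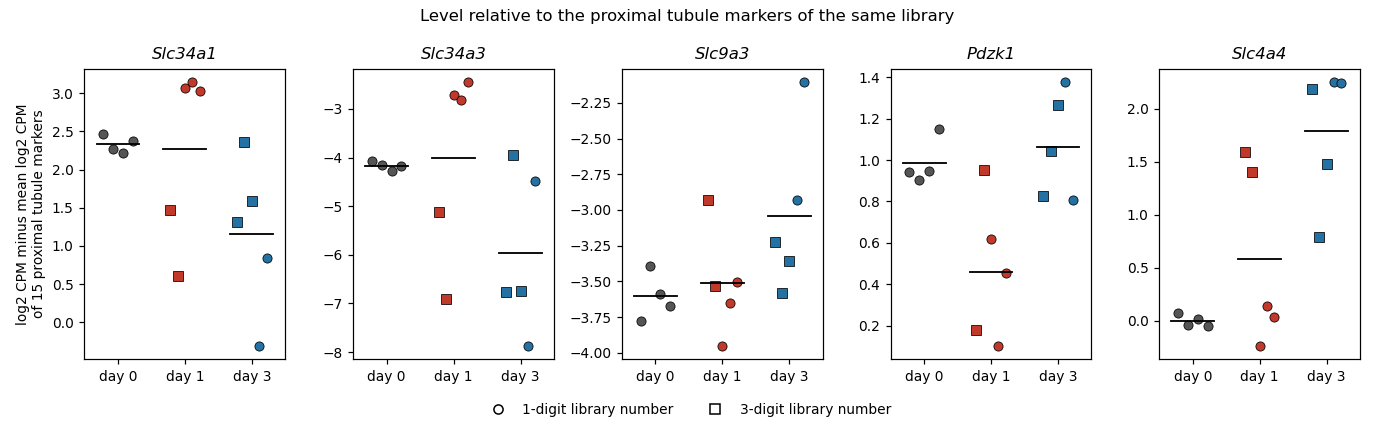
Log2 CPM of 5 proximal tubule genes minus the mean log2 CPM of the 15 proximal tubule markers of the same library, by day. Circles are 1-digit and squares 3-digit libraries, and lines are means of the day (n = 4, 5 and 5). Slc4a4 lies at -0.05 to 0.08 at day 0 and at 0.79 to 2.25 at day 3, and Slc34a1 splits by format at day 1.

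The wider machinery of phosphate balance was described from a list of 24 further genes, 22 of which were tested, while Fgf23 and Phex were too low. At day 1, 2 rose and 7 fell (median log2 -0.31), and at day 3, 3 rose and 7 fell (median -0.34), with 0 changed from day 1 to day 3. Over all genes, 23.3% rose and 18.7% fell at day 1 and 19.5% rose and 13.8% fell at day 3, so the share called in this list was near the background at day 1. By format, 6 rose and 8 fell in the 1-digit and 1 rose and 10 fell in the 3-digit libraries of day 1. At day 3, 6 rose and 11 fell in the 1-digit and 2 rose and 8 fell in the 3-digit libraries. In either direction, 58.5% and 41.6% of all genes were called in the 1-digit and 3-digit libraries of day 1, and 53.7% and 32.4% in those of day 3. The share called in this list was near the background in both formats of day 1. Ezr (ezrin, which links brush border proteins to actin) rose by 1.04 on the log2 scale at day 1 (SE 0.19, adjusted p = 0.000862, edgeR) and 0.52 at day 3 (adjusted p = 0.0431). Slc17a1 (NPT1, first described as a phosphate transporter) fell by 0.57 at day 1 (SE 0.19, adjusted p = 0.0268) and 0.76 at day 3 (adjusted p = 0.00838). Kl (Klotho, the coreceptor of FGF23) fell by 1.69 at day 1 (SE 0.46, adjusted p = 0.00994) and 1.98 at day 3 (adjusted p = 0.00580). Its level was 711 to 846 CPM at day 0, 126.04 to 417 at day 1 and 54.7 to 411 at day 3, with no overlap with day 0. The other genes that fell at both days were Xpr1, a phosphate exporter, Pth1r, the parathyroid hormone receptor, and Fam20c, a kinase of secreted proteins.

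Among 12 further genes of the sodium-proton exchanger family and its partners, 10 were tested. At day 1, 1 rose and 3 fell, and at day 3, 3 rose and 2 fell (median log2 -0.65 and -0.05), where 42.1% of all genes were called at day 1 and 33.3% at day 3. The share called at day 1 was near the background. By format, 0 rose and 6 fell in the 1-digit and 2 rose and 3 fell in the 3-digit libraries of day 1, and 3 rose and 1 fell in the 1-digit and 1 rose and 2 fell in the 3-digit libraries of day 3. Slc9a8 (NHE8) fell by 2.03 on the log2 scale at day 1 (SE 0.22, adjusted p = 2.47e-05, edgeR) and 2.57 at day 3 (SE 0.22, adjusted p = 6.53e-06). It ranged from 207 to 378 CPM at day 0, 51.5 to 93.1 at day 1 and 39.0 to 60.1 at day 3. Chp1, a calcium-binding partner of these exchangers, rose by 0.58 at day 1 (adjusted p = 0.0397) and 0.66 at day 3 (adjusted p = 0.0294).

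Of 22 further genes of bicarbonate reclamation and acid excretion, 21 were tested, and 0 rose at either day, while 6 fell at day 1 and 5 at day 3 (median log2 -0.68 and -0.32). Over all genes, 23.3% rose and 18.7% fell at day 1, and 19.5% rose and 13.8% fell at day 3. By format, 11 fell and 0 rose in the 1-digit libraries at each day. In the 3-digit libraries, 6 fell and 0 rose at day 1, and 4 fell and 2 rose at day 3. Of all genes, 58.5% and 41.6% were called in either direction in the 1-digit and 3-digit libraries of day 1. At day 3 these shares were 53.7% and 32.4%. The share of this list called in either direction was not above the background in any of these groups. Slc4a1, the anion exchanger of intercalated and red blood cells, fell by 3.00 at day 1 (SE 0.52, adjusted p = 0.000707) and 3.26 at day 3 (adjusted p = 0.000607). Pck1, the gluconeogenic enzyme that follows ammonia production, did not pass against day 0 at either day, but rose from day 1 to day 3 by 1.53 (SE 0.42, adjusted p = 0.0266), as Slc4a4 did. In the 1-digit libraries of day 1, the lowest for Slc4a4, Pck1 stood at 1009 to 1832 CPM. It stood at 2911 and 4520.3 CPM in the 3-digit ones and at 3120 to 3718 CPM at day 0.

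The genes whose log2 CPM followed Slc34a1 most closely over the 14 libraries, among the 9628 genes with a mean of at least 10 CPM, were Aadac (Pearson r = 0.986), Slc22a22 (0.982), BC024386 (0.974), Cyp2d26 (0.974) and Agxt2 (0.973). For Slc20a1 they were Ptpn2 (0.977), Ets2 (0.975), Ptp4a1 (0.971), Pprc1 (0.970) and Wdr43 (0.969). Slc34a1 and Slc34a3 had r = 0.927 with each other, Slc34a1 and Slc34a2 had -0.70, and Slc34a1 and Slc20a1 had 0.05. The libraries of a day and format lie together in these correlations, and they are given as a description.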

How the data were processed

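Total RNA of mouse kidneys was extracted with TRIzol and sequenced from Illumina TruSeq libraries. Per the labels, the authors trimmed reads with Trimmomatic and aligned them with STAR to mm10, and no versions are given in the sources used here. The deposited files, 1 per library, hold raw counts of reads per gene from STAR, unstranded and for each strand. The column of the opposite strand held 98.5% to 98.7% of strand-assigned reads and was used. STAR's totals for reads on no gene, 29.0% to 38.3% of the reads, were left out of the library sizes and the tests.

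The tests were run with edgeR 4.0.16 under R 4.3.3. A filter by filterByExpr on the 3 days kept 14300 genes, and TMM factors scaled the libraries. The quasi-likelihood test was fitted to all 14 libraries, once with 1 term per day and once with 1 term per day and library number format. P-values were adjusted over all genes by Benjamini-Hochberg with a threshold of 0.05. SEs were derived from the log2 fold change and the F statistic. Log2 CPM used a prior count of 2, and levels per kilobase used the exon length of GENCODE M21 (GRCm38), from which coordinates also come. The fits were tested on simulated counts before use. Alternatives were the unstranded column, RLE factors, total counts, no filter, a minimum of 10 counts per gene and library, DESeq2 1.42.0, other choices of libraries and terms, and leaving out each library in turn. The 8 genes and the lists were chosen with earlier results of these data known. From each of the 3 pathway lists, the 2 most abundant tested genes and those with the largest and the lowest log2 fold change among those called at day 1 were named with values, and other names were chosen after their values were seen. A gene that this rule names is not reported here.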

Additional observations from a re-analysis of the deposited data

Results flagged for a closer look

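The difference between 3-digit and 1-digit libraries was not the same at day 1 and day 3 for 5 of the 8 genes, by a test of the difference itself (edgeR, format by day), beside 17.6% of all genes. It was -6.11 on the log2 scale for Slc34a1 (SE 0.77, adjusted p = 0.000572), which was lower in the 3-digit libraries at day 1 and higher at day 3. For Slc34a3 it was -6.51 (SE 1.52, adjusted p = 0.0118), and without day 1 replicate 2 it was -5.81 (adjusted p = 0.0535). Slc34a3 was lower in the 3-digit libraries at day 1, while its difference between formats at day 3 (2.33, adjusted p = 0.135) did not pass. That difference was -0.039 without day 3 replicate 2 and 2.82 (adjusted p = 0.0417) without day 3 replicate 1. For Pdzk1 it was -2.11 (SE 0.62, adjusted p = 0.0337), a call lost without day 1 replicates 1, 2 or 3 or day 3 replicates 2 or 5 (adjusted p up to 0.133). For Slc20a1 it was -1.10 (SE 0.29, adjusted p = 0.0212), lost without day 1 replicate 2 or day 3 replicate 4 (adjusted p = 0.0796 and 0.0589). For Slc9a3 it was -1.01 (SE 0.33, adjusted p = 0.0497), lost without any 1 day 0 library, day 1 replicates 2, 3 or 5 or day 3 replicates 2, 4 or 5. The cause was not tested. Libraries were also checked within each day, by Dixon's test of the gap between the highest or lowest library and its neighbour over the range of the group. On log2 CPM and the type II share, 0 of 27 groups passed, where chance alone would give 1.35. On CPM, a scale added after seeing the data, 4 of 24 groups passed, where chance would give 1.2, and all 4 were high libraries of day 3. Replicate 2 stood at 4084 CPM for Slc34a1 (the others at 226 to 1335), at 51.1 CPM for Slc34a3 (1.08 to 6.76) and at 66.0 CPM for Slc9a3 (35.8 to 43.1). Replicate 3 stood at 74.5 CPM for Slc34a2 (16.6 to 31.6).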

How the results depend on the processing

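Over all alternatives, changes that passed the test kept their direction and side of the threshold in 848 of 930 values, fell short of it in 81 and turned in 1. At day 1, Slc20a1, Slc20a2, Slc9a3 and Pdzk1 passed under every alternative run, as did Slc9a3 at day 3 and Slc20a1 and Slc4a4 between the days. The count of genes passing at day 3 (3) was 5 with DESeq2, 7 with 1-digit libraries alone and 1 to 6 without 1 library (6 without day 3 replicate 2). From day 1 to day 3 (2) it was 5 with 1-digit libraries alone. Between formats at day 3 (1) it was 2 with DESeq2 and 0 to 3 without 1 library. In the 1-digit libraries of day 1 (5) it was 3 to 5 without 1 library, in the 3-digit libraries of day 3 (5) 2 to 8, and for the format difference between days (5) 1 to 6. Relative to Lrp2 alone in place of the 15 markers, 4 tests passed instead of 0, and Slc34a1 and Pdzk1 at day 1 turned to 1.07 and 0.61.

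Differences that turned were all but 1 below the threshold before. With 1-digit libraries alone, day 3 against day 1 was -0.70 for Pdzk1, 0.21 for Slc20a2, 1.51 for Slc34a2 and -0.31 for Slc9a3, and day 1 was 0.094 for Slc34a1 and -0.035 for Slc34a2. With 3-digit libraries of days 1 and 3, Slc34a1 and Slc34a3 were 1.80 and 1.92 at day 3 against day 1, and Slc34a3 was -3.36 at day 1. Total counts gave 0.12 for Slc20a2 at day 3 against day 1, -0.054 for Slc34a1 in the 1-digit libraries of day 1 and 0.13 for the format difference of Slc4a4, and they shifted the median of all genes by up to 0.24. Between formats at day 1, Slc20a2 was -0.027 with DESeq2 and with RLE. Format as a term gave 0.22 for Slc34a2 at day 3 against day 1. Leaving out 1 library spanned 0 from -0.26 to 0.50 for Slc20a1 between formats at day 3, -0.13 to 0.26 and -0.12 to 0.082 for Slc20a2 between formats at day 1 and between days, -0.16 to 0.17 for Slc34a1 and -0.75 to 0.39 for Slc34a2 in the 1-digit libraries of day 1, -0.68 to 0.67 for Slc34a2 between days, -0.039 to 4.13 for Slc34a3 between formats at day 3 and -0.28 to 0.45 for it at day 1, and -0.38 to 0.52 for Slc4a4 in the 1-digit libraries of day 3 and -0.53 to 0.35 for its format difference. Relative to the markers at day 1 the spans were -0.29 to 0.35 for Slc34a1, -0.23 to 0.89 for Slc34a3 and -0.054 to 0.20 for Slc9a3. The causes were not tested.

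Replicate numbers did not pair the libraries: of 13 same-numbered pairs, 4 had a correlation over 0.1 (range -0.17 to 0.26). With the replicate block, 4, 3 and 2 genes passed at day 1, day 3 and between the days, Slc34a2 at day 1 was 2.08 (adjusted p = 0.111), Slc20a1 at day 3 was 0.71 (adjusted p = 0.0667), Slc4a4 at day 3 was 0.52 (adjusted p = 0.0396), and Slc34a3 at day 1 and Slc34a2 between the days turned to -0.10 and 0.21. Depth limits Slc34a3 and Slc34a2, whose lowest counts were 16 and 28 reads.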
